A study of Homo sapiens with 12 samples.

Results

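The matrix metalloproteinases (MMPs), the ADAM and ADAMTS proteases and their inhibitors, the TIMPs, were followed in the human line KYSE70, grown from an esophageal squamous cell carcinoma, by RNA sequencing of 12 libraries. Of these, 4 came from cells left untreated (control), 4 from cells given 10 µM pyrimethamine, an antifolate, and 4 from cells given 20 nM mitoxantrone, a topoisomerase II poison, each for 72 h. The series title calls both drugs inhibitors of the transcription factor NRF2. The labels name no vehicle for the control and do not say if replicates were separate cultures, so a p-value measures only how these samples vary, which may be technical. Members were chosen by symbol, as MMP, ADAM or ADAMTS followed by a number, or TIMP1 to TIMP4, and kept where 4 or more of the 12 libraries had a normalized count of at least 10. Of 69 genes with such symbols, 38 were kept: 13 of 24 MMPs, 11 of 22 ADAMs, 11 of 19 ADAMTS genes and 3 of 4 TIMPs. The same limit kept 16950 of the 58884 genes in the table.

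The MMPs are zinc-dependent endopeptidases, secreted or held at the cell surface, that are made as inactive proforms and cleave collagens, laminins and other matrix proteins. The ADAMs are membrane proteases that cut the outer part of growth factors, receptors and adhesion molecules from the cell, although several members lack a working catalytic site. The ADAMTS proteases are secreted and act on procollagens, proteoglycans and von Willebrand factor, and the TIMPs block the active site of MMPs and of some ADAM and ADAMTS enzymes. Squamous carcinomas are known to make several of these proteases, and transcripts alone do not show how much active enzyme is present.

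Among the sequences just upstream of the transcription start, 4 are shown, for 2 MMP genes of one chromosome 11 cluster that changed in different directions under pyrimethamine and for an MMP and a TIMP with large changes in both drugs. Each is the 250 bases before the RefSeq start (GRCh38.p14), 5′ to 3′ on the gene's strand. The capitals mark an AP-1 site, searched as TGANTCA, and a TATA box, searched as TATAAA, on both strands. The windows are chr11:102530748-102530997 (minus strand) for MMP7, chr11:102780629-102780878 (minus strand) for MMP10, chr20:35226440-35226689 (plus strand) for MMP24 and chr22:32801455-32801704 (plus strand) for TIMP3.
MMP7: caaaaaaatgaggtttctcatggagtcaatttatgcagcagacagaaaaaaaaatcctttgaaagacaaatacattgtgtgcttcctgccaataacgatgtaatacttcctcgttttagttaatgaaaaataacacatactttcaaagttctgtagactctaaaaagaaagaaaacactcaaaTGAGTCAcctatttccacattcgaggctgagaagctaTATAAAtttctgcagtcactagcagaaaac
MMP10: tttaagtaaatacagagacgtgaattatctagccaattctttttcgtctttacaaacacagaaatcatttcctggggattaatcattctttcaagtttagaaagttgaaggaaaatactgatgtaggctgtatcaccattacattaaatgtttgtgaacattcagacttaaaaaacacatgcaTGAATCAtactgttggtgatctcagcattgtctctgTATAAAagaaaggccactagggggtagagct
MMP24: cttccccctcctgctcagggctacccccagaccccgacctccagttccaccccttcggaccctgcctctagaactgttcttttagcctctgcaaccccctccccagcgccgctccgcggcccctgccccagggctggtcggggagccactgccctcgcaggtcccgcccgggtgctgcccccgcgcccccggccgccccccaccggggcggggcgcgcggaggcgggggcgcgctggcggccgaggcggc
TIMP3: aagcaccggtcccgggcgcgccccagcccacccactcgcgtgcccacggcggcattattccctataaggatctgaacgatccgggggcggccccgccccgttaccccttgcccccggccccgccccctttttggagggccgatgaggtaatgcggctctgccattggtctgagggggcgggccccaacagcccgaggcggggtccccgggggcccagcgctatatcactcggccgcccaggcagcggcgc
In both MMP7 and MMP10 the AP-1 letters began 67 bases upstream of the start, and the TATA box began 30 bases upstream in MMP7 and 31 in MMP10. GC made up 33.6% of the MMP7 window and 34.4% of the MMP10 window, against 77.6% for MMP24 and 72.4% for TIMP3, which hold neither motif. The set of RefSeq promoters used here held a window for 25 of the 38 kept genes. Not in it, and so not searched, were MMP1, MMP12 and MMP13 of the chromosome 11 cluster. The same held for MMP2, MMP17, MMP19, MMP28, TIMP2, ADAM9, ADAM11, ADAMTS1, ADAMTS15 and ADAMTS16. The AP-1 letters were in 3 of these, MMP7, MMP10 and ADAMTS12, and in 6.57% of 35116 promoters of the same length. TATAAA was in 2 of the 25 and in 10.7% of all. The core of the antioxidant response element, the kind of site that NRF2 binds, was searched as TGACNNNGC and found in ADAMTS2 alone among the 25, and in 10.9% of all promoters. These matches describe letters in a window and are not measured binding sites.

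Between 47.5 M and 94.5 M reads per library were assigned to genes. All 10 squamous epithelium markers were above the limit, KRT5 at a mean of 219930 normalized counts and TP63 at 16791 in the control. Of 8 fibroblast markers 4 were above it, COL1A1, COL3A1, THY1 and PDGFRB, while COL1A2 and DCN had no read in any control library. Above the limit were 1 of 8 leukocyte markers, PTPRC, at a control mean of 4.91, and 1 of 5 endothelium markers, VWF, at 1001. Mitochondrial genes took 6.16% to 6.69% of reads in the control, 6.83% to 8.33% with pyrimethamine and 3.23% to 3.89% with mitoxantrone, where replicate 1 was the lowest.

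In untreated cells the inhibitors and a few membrane proteases dominated. Levels between genes were compared per kilobase of exon sequence, taken as all annotated exons of a gene merged. This length was 16168 bases for ADAM10 and 1541 for TIMP1. It can exceed that of a single transcript, so the order of genes and the family sums depend on it. TIMP1 stood first at 4352 ± 35.7 normalized counts per kb (SD, n = 4), followed by ADAM9 at 1898 ± 28.8, the membrane-anchored collagenase MMP14 at 1845 ± 36.5, TIMP3 at 1417 ± 49.7 and ADAM15 at 1344 ± 64.0. ADAM9 and MMP14 differed by less than the sum of their SDs, as did TIMP3 and ADAM15, and ADAM23 at 942 ± 28.4 and TIMP2 at 908 ± 20.4, and MMP15 at 426 ± 18.8 could not be separated from MMP2 at 423 ± 6.48. MMP10 was the highest of the secreted enzymes of the chromosome 11 cluster at 527 ± 41.7 per kb. ADAMTS16 led its family at 263 ± 8.66 per kb, and ADAMTS12 was the lowest kept gene at 0.843. Summed per kb, the 3 TIMPs reached 6677 in the control, the 11 ADAMs 5328, the 13 MMPs 3903 and the 11 ADAMTS genes 676. A single gene held much of each sum: TIMP1 65.2%, MMP14 47.3%, ADAMTS16 39.0% and ADAM9 35.6%.

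**Figure D1:**
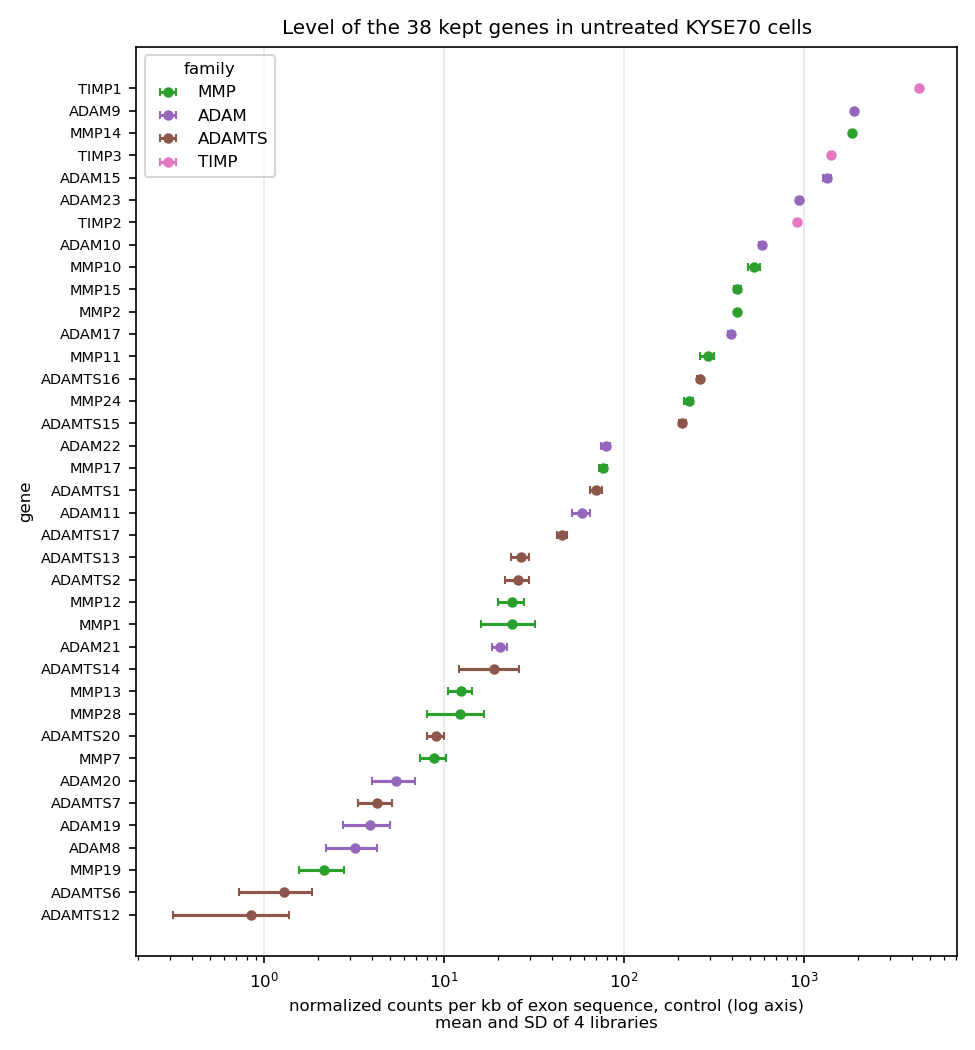
Level of each of the 38 kept genes in untreated KYSE70 cells, as normalized counts per kilobase of exon sequence on a log axis, with points for the mean and bars for the SD of 4 control libraries. TIMP1 is the highest at 4352 and ADAMTS12 the lowest at 0.843.

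Many well-known family members were not among the kept genes. MMP9, the second gelatinase beside MMP2, had 2.08 to 5.27 normalized counts in the control libraries, 4.38 to 6.90 with pyrimethamine and at most 0.954 with mitoxantrone. MMP3, a stromelysin of the chromosome 11 cluster, had a read in 1 control library only. TIMP4 stayed at or below 4.15 in every library, and the aggrecan-cleaving ADAMTS5 at or below 1.32. Of the 31 genes under the limit, 29 had no library at 10 and 3 had no read anywhere, ADAM6, ADAM30 and ADAMTS19. Just outside the limit were ADAMTS9 and ADAM12, each with 1 library at 10 or more, and just inside were ADAMTS6 and MMP19 with 6 libraries each. No kept gene had all its values of 10 or more in 1 group. However, 6 had no mitoxantrone library at 10 (ADAM19, ADAM20, ADAMTS6, MMP7, MMP19 and MMP28), and MMP1, MMP12 and ADAMTS7 had 1 each. For these the limit itself favoured a lower mitoxantrone level. ADAMTS6 had 2 control libraries at 10 or more, and ADAM20 had 3, beside 4 with pyrimethamine for each. The limit thus also favoured a higher pyrimethamine level for these 2 genes. A total of 24 kept genes were at 10 or more in all 12 libraries.

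Across the kept genes pyrimethamine moved members both ways, while most MMPs and every kept TIMP were lower with mitoxantrone. Of the 38 genes, 13 rose and 10 fell with pyrimethamine against control at an adjusted p under 0.05 (limma, adjusted over all 16950 genes). Over all genes tested, 26.4% were called higher and 26.9% lower in that comparison, against 34.2% and 26.3% of the members. With mitoxantrone 8 members rose and 26 fell, that is 68.4% lower, where 33.5% of all genes were called higher and 35.8% lower. The median log2 change of the members was 0.11 with pyrimethamine and -0.69 with mitoxantrone, beside 0.0018 and -0.0080 for all genes. Under quantile normalization the members' median for mitoxantrone was -0.39. After rescaling to equal library totals, the median of all genes for mitoxantrone moved by -0.0998 and its calls went from 5681 higher and 6064 lower to 4420 and 7210, while 6 members were higher and 26 lower. Both comparisons share the 4 control libraries. In such bulk samples, fewer cells of a kind and less RNA per cell cannot be told apart.

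**Figure D2:**
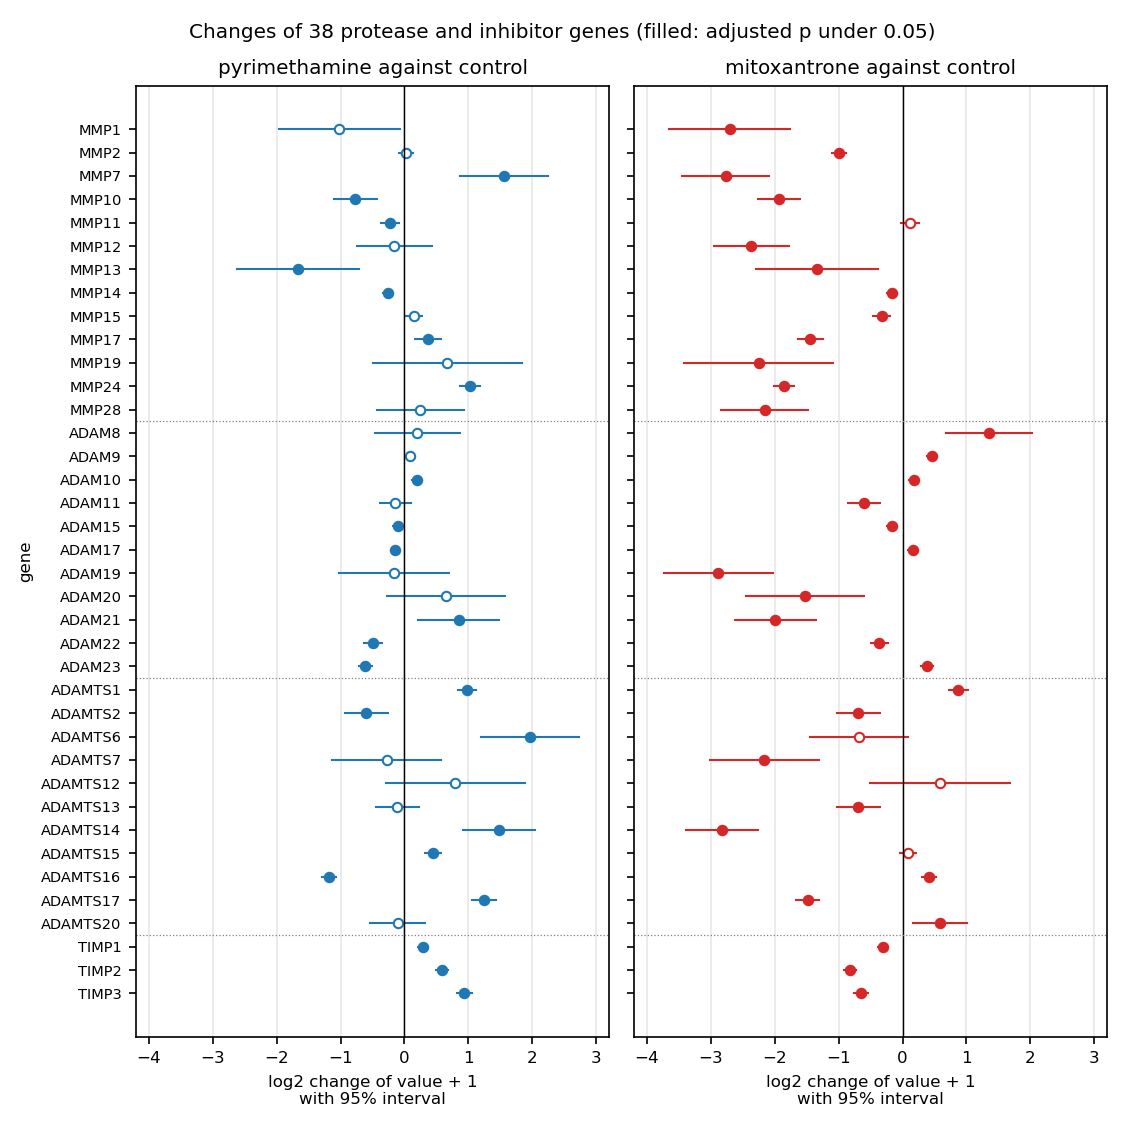
Log2 change of value + 1 for each of the 38 kept genes, pyrimethamine against control on the left and mitoxantrone against control on the right, with bars for the 95% interval from limma and filled points for an adjusted p under 0.05. On the right, 12 of the 13 MMPs and all 3 TIMPs are filled and left of 0.

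A called change of at least 2-fold was seen in 44.7% of the members for mitoxantrone against control, beside 17.7% of all genes, and in 18.4% of the members for pyrimethamine, beside 6.70% of all genes. Most of these members were low genes under 10 in some libraries, for several of which the limit favoured the change. Of the members at 10 or more in all 12 libraries, only MMP2, MMP10, MMP17, MMP24 and ADAMTS17 changed so far with mitoxantrone. With pyrimethamine only MMP24, ADAMTS16 and ADAMTS17 did. The 2-fold share of all genes at that level was not computed. Among the 24 members at 10 or more in all 12 libraries, 7 rose and 15 fell with mitoxantrone, and 9 rose and 9 fell with pyrimethamine. Over all 13906 genes that met this stricter limit, 38.5% were higher and 33.7% lower with mitoxantrone, and 28.1% and 31% with pyrimethamine. Summed marker levels moved too: the 8 fibroblast markers summed to 23039 to 23976 normalized counts in the control, 19471 to 20913 with pyrimethamine and 8886 to 10757 with mitoxantrone, and 4 of the 8 were under the limit. COL1A1, at means of 14955, 11201 and 4430, made up most of that sum, while THY1 averaged 6334, 7695 and 3039 and COL3A1 2295, 1344 and 2171. The 5 endothelium markers, nearly all VWF, summed to 948 to 1059 in the control, 1050 to 1153 with pyrimethamine and 175 to 247 with mitoxantrone. The squamous markers summed to 408630 to 432140 in the control, 478530 to 502990 with pyrimethamine and 383630 to 410680 with mitoxantrone, a sum carried by KRT5 and KRT6A. TP63, with means of 16791, 12861 and 22316 in the 3 groups, SOX2, with 9305, 6617 and 18425, and DSG3, with 21082, 12642 and 21826, did not follow it. The 8 leukocyte markers summed to at most 49.8 in any library. The part of these shifts, and of the mitochondrial share, in the members' changes was not tested.

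The inhibitors gave the most uniform picture: all 3 kept TIMPs rose with pyrimethamine, all 3 fell with mitoxantrone, and no library of 1 group overlapped those of another. Of all genes tested, 26.4% were called higher with pyrimethamine and 35.8% lower with mitoxantrone. Groups that did not overlap were common, at 51.1% and 60.9% of all genes against control and 68.8% between the drugs. TIMP3, which binds to the matrix and also blocks ADAM17 and several ADAMTS enzymes, lies on chromosome 22 from 32801701 to 32863043 (GRCh38, plus strand). It measured 6552, 6794, 6505 and 6236 normalized counts in the control libraries, 12804, 12561, 12537 and 12094 with pyrimethamine, and 3754, 4798, 4150 and 3945 with mitoxantrone. Its log2 change was 0.94 (SE 0.0537, limma adjusted p = 8.47e-12) for pyrimethamine, a 1.92-fold rise, and -0.65 (SE 0.0537, adjusted p = 6.12e-10) for mitoxantrone. TIMP3 was thus the gene of the 3 with the largest rise.

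TIMP2, which blocks MMP2 and also takes part in its activation by MMP14, lies on chromosome 17 from 78852977 to 78925387 (minus strand). Its control values were 5184, 5233, 4984 and 5054, its pyrimethamine values 7522, 8168, 7699 and 7333, and its mitoxantrone values 3089, 2917, 2833 and 2728. That was a log2 change of 0.59 (SE 0.0428, adjusted p = 3.33e-10) for pyrimethamine and -0.82 (SE 0.0428, adjusted p = 3.87e-13) for mitoxantrone, the largest fall of the 3 TIMPs. TIMP1, a broad MMP inhibitor, lies on chromosome X from 47582313 to 47586789 (plus strand). It was at 6635, 6696, 6732 and 6763 in the control, 8235, 8117, 8524 and 7921 with pyrimethamine and 5116, 5588, 5438 and 5488 with mitoxantrone. The changes of TIMP1 were smaller, 0.29 (SE 0.0363, adjusted p = 8.14e-07) and -0.31 (SE 0.0363, adjusted p = 1.34e-07) on the log2 scale. TIMP1 lies within an intron of SYN1 on the opposite strand and TIMP3 within SYN3, and the annotated exons of TIMP1 and TIMP3 overlap no other gene's exon, while 10.0% of the TIMP2 exon sequence is overlapped. SYN1 averaged 117, 89.5 and 24.0 normalized counts and SYN3 5.09, 7.37 and 1.95 in control, pyrimethamine and mitoxantrone libraries, far below the TIMPs.

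**Figure D3:**
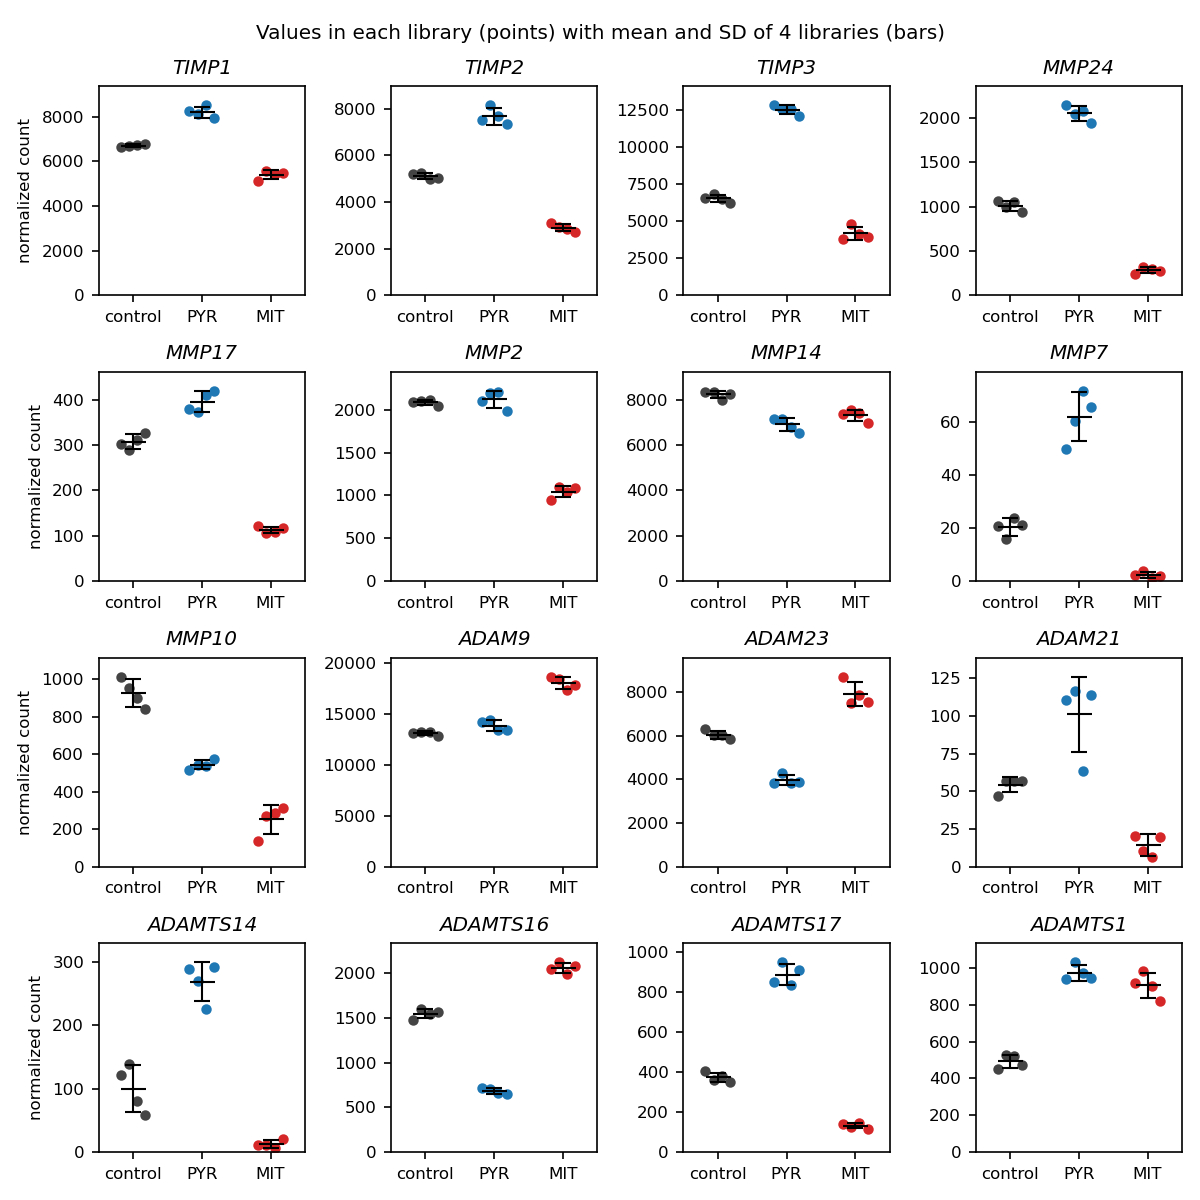
Normalized counts in each library (points) for 16 of the genes described, with the mean and SD of 4 libraries as bars, for control, pyrimethamine (PYR) and mitoxantrone (MIT), each panel on its own linear axis from 0. TIMP1, TIMP2, TIMP3, MMP24, MMP17, MMP7, ADAM21, ADAMTS14 and ADAMTS17 are highest with pyrimethamine and lowest with mitoxantrone, while ADAM23 and ADAMTS16 are in the opposite order.

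The MMPs fell nearly throughout with mitoxantrone, 12 of 13 being called lower and none higher, with a median log2 change of -1.85. Over all genes tested, 35.8% were called lower and 33.5% higher. MMP7, MMP19 and MMP28 had no mitoxantrone library at 10, and MMP1 and MMP12 had 1 each. For these genes the limit itself favoured a fall. MMP2, MMP10, MMP14, MMP15, MMP17 and MMP24 were at 10 or more in all 12 libraries and were lower too. MMP11 was the exception: it ranged from 1360 to 1661 in the control and from 1537 to 1702 with mitoxantrone, a log2 change of 0.11 (adjusted p = 0.142). With pyrimethamine 3 MMPs rose, 4 fell and 6 were not called, and the median log2 change was 0.02. These rises and falls were 23.1% and 30.8% of the MMPs, near the 26.4% and 26.9% of all genes. Control and drug libraries did not overlap for 6 of 13 MMPs under pyrimethamine, where that held for 51.1% of all genes tested, and for 12 of 13 under mitoxantrone, where it held for 60.9%.

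Within the MMPs, the secreted collagenases, stromelysins and matrilysin sit side by side on chromosome 11, where 9 MMP genes span 102520508 to 102955734, and 5 of them were kept. MMP10, a stromelysin, was by far the most abundant of the 5. Its counts were 1015, 951, 899 and 843 in the control, 517, 542, 537 and 576 with pyrimethamine and 139, 271, 285 and 316 with mitoxantrone. It fell with both drugs, with log2 changes of -0.77 (SE 0.161, adjusted p = 0.00038) and -1.93 (SE 0.161, adjusted p = 7.38e-10), and its groups did not overlap. MMP7, the matrilysin at the end of the cluster, was at 20.6, 15.9, 23.9 and 21.1 in the control, 49.8, 60.1, 71.6 and 65.7 with pyrimethamine and 2.07, 3.82, 1.24 and 1.79 with mitoxantrone. MMP7 rose with pyrimethamine, by 1.56 on the log2 scale (SE 0.330, adjusted p = 0.000423), where MMP10 fell. The windows of both genes, shown above, hold the same pair of motifs. The mitoxantrone change of MMP7 was -2.77 (SE 0.330, adjusted p = 1.87e-07), from few reads, and it was -1.31 on a log2(value + 10) scale and -1.72 under quantile normalization.

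The other 3 kept genes of the cluster were low. MMP1, the interstitial collagenase, spanned 26.0 to 63.2 in the control, 15.4 to 33.9 with pyrimethamine and 2.07 to 17.2 with mitoxantrone. It fell with mitoxantrone (log2 change -2.70, adjusted p = 1.91e-05). With pyrimethamine it was not called (log2 change -1.02, adjusted p = 0.0637), although edgeR and DESeq2 on the recovered reads gave adjusted p-values of 0.0246 and 0.0181. MMP12, the macrophage elastase, was at 36.3 to 53.5 in the control and 5.38 to 10.3 with mitoxantrone, a log2 change of -2.37 (adjusted p = 1.93e-07), and its pyrimethamine range of 33.5 to 53.7 overlapped the control. MMP13, a collagenase, went from 29 to 41 in the control to 3.29 to 19.6 with pyrimethamine and 4.48 to 19.1 with mitoxantrone. Both of its falls were called, at -1.66 (adjusted p = 0.00415) and -1.34 (adjusted p = 0.0133), but without mitoxantrone replicate 4 the latter was -0.88 (adjusted p = 0.0691), and quantile normalization gave -0.81 (adjusted p = 0.13). WTAPP1, whose exons overlap 7.6% of MMP1, averaged 62.8, 134 and 28.5 in the 3 groups.

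MMP2, the gelatinase that degrades denatured and basement membrane collagen, was lower with mitoxantrone and near the control with pyrimethamine. It measured 2090, 2104, 2117 and 2044 in the control, 2108, 2196, 2208 and 1993 with pyrimethamine and 952, 1100, 1045 and 1083 with mitoxantrone. The mitoxantrone libraries lay far below the rest, with a log2 change of -1.0 (SE 0.0517, adjusted p = 3.48e-13), while the pyrimethamine change was 0.02 with an interval of -0.08 to 0.13. The difference between the drugs was itself called (log2 change -1.02, adjusted p = 8.08e-14).

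The membrane-anchored MMPs divided by size of change. MMP14, which activates MMP2 at the cell surface, had 8335, 8339, 7996 and 8276 normalized counts in the control, 7169, 7148, 6804 and 6543 with pyrimethamine and 7358, 7530, 7406 and 6961 with mitoxantrone. Both falls were called and small, -0.25 (SE 0.0380, adjusted p = 8.71e-06) and -0.17 (SE 0.0380, adjusted p = 0.000418), and the 2 drug groups overlapped each other. After rescaling to equal totals the mitoxantrone fall was -0.27. MMP24, a membrane MMP best known from neural tissue, on chromosome 20 from 35226654 to 35277000 (plus strand), changed far more. Its values were 1066, 990, 1046 and 942 in the control, 2145, 2049, 2074 and 1938 with pyrimethamine and 240, 316, 297 and 269 with mitoxantrone. It rose 2.03-fold with pyrimethamine (log2 change 1.02, SE 0.0750, adjusted p = 3.65e-10) and fell 3.61-fold with mitoxantrone (log2 change -1.85, SE 0.0750, adjusted p = 7.43e-15). Other genes' exons overlap 21.8% of its exon sequence, chiefly those of MMP24OS, whose means were 1055, 1244 and 832 with log2 changes of 0.24 (adjusted p = 0.00143) and -0.34 (adjusted p = 2.18e-05). The strand setting of the counting is not given in the sources used here, so reads in the overlap cannot be assigned between them.

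MMP17, held in the membrane by a lipid anchor, moved in the same directions as MMP24. It was at 303, 288, 311 and 327 in the control, 379, 373, 409 and 419 with pyrimethamine and 121, 105, 109 and 116 with mitoxantrone, which gave log2 changes of 0.36 (SE 0.0974, adjusted p = 0.00349) and -1.44 (SE 0.0974, adjusted p = 2.63e-11). MMP15, another transmembrane enzyme, fell with mitoxantrone from a control range of 1789 to 1991 to 1361 to 1675 (log2 change -0.33, adjusted p = 0.000107) and was not called with pyrimethamine (0.14, adjusted p = 0.0636), though 6 alternatives called it higher (adjusted p from 0.0135 to 0.0486). The 2 remaining low members fell with mitoxantrone and were not called with pyrimethamine, MMP28 (log2 change -2.16, adjusted p = 5.26e-06) and MMP19 (-2.25, adjusted p = 0.00124). MMP19 had 7 reads in all over the mitoxantrone libraries, its call was lost under quantile normalization (adjusted p = 0.118), and 17.4% of its exon sequence is overlapped, chiefly by TMEM198B, which averaged 488, 738 and 400 in the 3 groups. MMP11, the stromelysin with a furin-cleaved proform, fell slightly with pyrimethamine (log2 change -0.22, adjusted p = 0.00865), although its groups overlapped.

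The ADAMs changed in both directions. With mitoxantrone, 5 of 11 rose and 6 fell, beside 33.5% and 35.8% of all genes, and control and drug libraries did not overlap in any of the 11, beside 60.9% of all genes. With pyrimethamine 2 rose, 4 fell and 5 were not called, beside 26.4% and 26.9% of all genes, with no called change of 2-fold. The median log2 changes were -0.17 and -0.10.

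The abundant sheddases had small changes. ADAM9, a sheddase of several surface proteins and the highest ADAM, had 13159, 13212, 13272 and 12826 normalized counts in the control, 14228, 14452, 13400 and 13410 with pyrimethamine and 18711, 18430, 17424 and 17849 with mitoxantrone. It rose 1.38-fold with mitoxantrone (log2 change 0.46, SE 0.0359, adjusted p = 2.24e-10) and missed the threshold with pyrimethamine (0.08, adjusted p = 0.0659), even though every pyrimethamine library was above every control and 5 alternatives called it higher (adjusted p from 0.034 to 0.0481). ADAM10, the main sheddase of Notch and E-cadherin, was at 9400, 9528, 9818 and 8912, then 11116, 10743, 10592 and 10620 with pyrimethamine and 10621, 10938, 10370 and 10558 with mitoxantrone. Its rises were 0.19 (adjusted p = 9.61e-05) and 0.17 (adjusted p = 0.000188), and the latter was 0.07 (adjusted p = 0.0736) after rescaling to equal totals. ADAM17, which releases TNF and ligands of the EGF receptor, ranged from 4061 to 4363 in the control, 3730 to 3962 with pyrimethamine and 4566 to 4790 with mitoxantrone. It fell with pyrimethamine (log2 change -0.14, adjusted p = 0.00282) and rose with mitoxantrone (0.16, adjusted p = 0.000598), a rise that shrank to 0.06 (adjusted p = 0.176) with rescaled totals. ADAM17 and its neighbour IAH1 overlap over 13.6% of ADAM17's exon sequence. ADAM15 went from 9092, 9319, 8445 and 8550 to 8575, 8396, 8087 and 7910 with pyrimethamine and 8178, 8004, 7724 and 7608 with mitoxantrone. The mitoxantrone fall was called (log2 change -0.17, adjusted p = 0.000893, or -0.27 after rescaling to equal totals), whereas the pyrimethamine call (log2 change -0.10, adjusted p = 0.0363) was lost without control replicate 1 or 2 or pyrimethamine replicate 3 or 4 (adjusted p from 0.0908 to 0.143).

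ADAM11, ADAM22 and ADAM23 lack a working catalytic site and serve as adhesion or receptor proteins, chiefly in the nervous system. ADAM23 was the one with the clearest change. Its counts were 6290, 6023, 6035 and 5846 in the control, 3848, 4299, 3845 and 3862 with pyrimethamine and 8704, 7494, 7878 and 7541 with mitoxantrone, so that all groups stood apart. It fell with pyrimethamine (log2 change -0.61, SE 0.0478, adjusted p = 9.27e-10) and rose with mitoxantrone (0.38, SE 0.0478, adjusted p = 3.54e-07). ADAM22 was at 1013, 986, 985 and 887 in the control, 650, 716, 683 and 699 with pyrimethamine and 769, 699, 737 and 804 with mitoxantrone. It was lower with both drugs, with log2 changes of -0.49 (adjusted p = 1.42e-06) and -0.36 (adjusted p = 3.81e-05). ADAM11 had 323, 271, 250 and 264 in the control, 264, 259, 259 and 219 with pyrimethamine and 171, 186, 215 and 155 with mitoxantrone. Its mitoxantrone change passed the threshold (log2 change -0.61, adjusted p = 0.000114, or -0.37 under quantile normalization), and its pyrimethamine change did not (-0.14, adjusted p = 0.331).

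The low ADAMs changed by larger factors. ADAM21, a gene without introns in its coding part that is best known from testis, had 46.8, 56.8, 57.1 and 56.7 normalized counts in the control, 110, 116, 63.5 and 114 with pyrimethamine and 20.7, 10.5, 6.18 and 19.7 with mitoxantrone. Its mitoxantrone change was -1.99 on the log2 scale (SE 0.304, adjusted p = 5.92e-06). The pyrimethamine rise of 0.85 (SE 0.304, adjusted p = 0.0235) lost its call without control replicate 1 or pyrimethamine replicate 1, 2 or 4 (adjusted p from 0.0615 to 0.0694). ADAM20, its close relative beside it on chromosome 14, was at 9.22 to 17.8 in the control and 1.24 to 8.97 with mitoxantrone (log2 change -1.52, adjusted p = 0.00464), a call lost under quantile normalization (adjusted p = 0.142). How the counting shared reads between such relatives is not given in the sources used here. ADAM19, a sheddase of neuregulins, fell with mitoxantrone from 18.7 to 36.9 to 0.954 to 6.18 (log2 change -2.88, adjusted p = 2.41e-06). ADAM8, best known from leukocytes, was the one low ADAM that rose with mitoxantrone, from 9.25 to 20.8 to 23.3 to 52.5 (log2 change 1.35, adjusted p = 0.000821).

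The ADAMTS genes gave the most rises of the 3 protease families under pyrimethamine: 5 of 11 rose, 2 fell and 4 were not called, and the median log2 change was 0.44. Among these rises, that of ADAMTS6 was favoured by the limit. With mitoxantrone 3 rose, 5 fell and 3 were not called, with a median of -0.68. All genes gave 26.4% higher and 26.9% lower with pyrimethamine and 33.5% and 35.8% with mitoxantrone. Control libraries lay apart from drug libraries in 7 and 8 of the 11, beside 51.1% and 60.9% of all genes.

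ADAMTS14 and ADAMTS2 remove the aminopropeptide of fibrillar procollagens. ADAMTS14, on chromosome 10 from 70672803 to 70762441 (plus strand), had 122, 139, 81.0 and 59.3 normalized counts in the control, 288, 269, 225 and 291 with pyrimethamine and 12.4, 12.4, 7.42 and 21.5 with mitoxantrone. It rose 2.79-fold with pyrimethamine (log2 change 1.48, SE 0.269, adjusted p = 8.55e-05) and fell 7.07-fold with mitoxantrone (log2 change -2.82, SE 0.269, adjusted p = 6.49e-09). ADAMTS2 did not share this pattern: it ranged from 183 to 264 in the control, 130 to 174 with pyrimethamine and 102 to 181 with mitoxantrone, and fell with both drugs, with log2 changes of -0.60 (adjusted p = 0.00345) and -0.69 (adjusted p = 0.000646, or -0.41 under quantile normalization). COL1A1, which encodes a substrate of both enzymes, averaged 14955, 11201 and 4430 normalized counts in the 3 groups.

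ADAMTS17, linked to fibrillin-rich connective tissue and on chromosome 15 from 99971589 to 100342005 (minus strand), was at 405, 359, 379 and 352 in the control, 847, 948, 836 and 910 with pyrimethamine and 140, 129, 145 and 117 with mitoxantrone. It rose 2.37-fold (log2 change 1.24, SE 0.0898, adjusted p = 2.84e-10) and fell 2.80-fold (log2 change -1.49, SE 0.0898, adjusted p = 4.15e-12). ADAMTS6, another low member, rose with pyrimethamine from 6.59 to 17.8 to 40.4 to 47.1 (log2 change 1.97, adjusted p = 0.00012) and was not called with mitoxantrone (log2 change -0.68, adjusted p = 0.105). It was at 10 or more in 2 control, 4 pyrimethamine and 0 mitoxantrone libraries, so the limit itself favoured its rise.

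ADAMTS16, the family's most abundant gene, went the other way. On chromosome 5 from 5140330 to 5320304 (plus strand), it measured 1473, 1592, 1546 and 1564 in the control, 712, 704, 656 and 650 with pyrimethamine and 2036, 2116, 1990 and 2071 with mitoxantrone. Every pyrimethamine library was under every control, a 2.27-fold fall (log2 change -1.18, SE 0.0507, adjusted p = 1.51e-13), and every mitoxantrone library was above, a 1.33-fold rise (log2 change 0.41, SE 0.0507, adjusted p = 3.06e-07).

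ADAMTS1, ADAMTS15 and ADAMTS20 belong to the members that cleave versican and other proteoglycans. ADAMTS1 rose with both drugs: its counts were 452, 525, 522 and 473 in the control, 938, 1029, 968 and 946 with pyrimethamine and 919, 982, 899 and 817 with mitoxantrone. The log2 changes of 0.98 (SE 0.0700, adjusted p = 2.43e-10) and 0.87 (SE 0.0700, adjusted p = 4e-10) came with drug groups that overlapped each other, and their difference was -0.10 with an interval of -0.25 to 0.04. ADAMTS15 was at 1184, 1262, 1131 and 1199 in the control, 1642, 1608, 1646 and 1600 with pyrimethamine and 1287, 1443, 1163 and 1184 with mitoxantrone. It rose with pyrimethamine (log2 change 0.44, adjusted p = 2.68e-06) and was not called with mitoxantrone (0.08, adjusted p = 0.228). ADAMTS20 had 68.3, 70.0, 55.0 and 68.5 in the control, 80.1, 65.0, 60.4 and 42.7 with pyrimethamine and 76.4, 94.4, 134 and 96.9 with mitoxantrone. Its mitoxantrone rise (log2 change 0.59, adjusted p = 0.0158) was lost without control replicate 3 (adjusted p = 0.0515) or mitoxantrone replicate 3 (adjusted p = 0.0738).

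ADAMTS13, which trims von Willebrand factor and is made chiefly by the liver, was at 148, 139, 144 and 178 in the control, 122, 181, 147 and 117 with pyrimethamine and 116, 90.6, 94.0 and 76.2 with mitoxantrone. It fell with mitoxantrone (log2 change -0.70, adjusted p = 0.000692), a call that narrowly missed the threshold under quantile normalization (adjusted p = 0.0516). Its substrate gene VWF averaged 1001, 1098 and 217 normalized counts in the 3 groups. ADAMTS7 fell with mitoxantrone from 27.0 to 42.3 to 2.86 to 18.6 (log2 change -2.16, adjusted p = 8.11e-05), and ADAMTS12 was not called in any comparison, with control values from 3.74 to 13.9 that overlapped both drug groups, although quantile normalization called it higher with mitoxantrone (1.34, adjusted p = 0.0343).

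The drugs were also set against each other. With mitoxantrone against pyrimethamine, 23 of 38 members were lower and 7 higher, or 60.5% and 18.4%, where 39.5% of all genes were called lower and 36.9% higher. Of the MMPs 10 were lower and 1 higher, of the TIMPs 3 lower, of the ADAMs 4 lower and 4 higher, and of the ADAMTS genes 6 lower and 2 higher. The 6 members with no mitoxantrone library at 10 were all among the lower, as were MMP1, MMP12 and ADAMTS7, which had 1 each. For all of these the limit favoured that direction. Of the 24 members at 10 or more in all 12 libraries, 12 were lower, 6 higher and 6 not called. A share of all genes under that stricter limit was not computed for this comparison. Libraries of the 2 drugs did not overlap in 10 of 13 MMPs, 8 of 11 ADAMs, 6 of 11 ADAMTS genes and 3 of 3 TIMPs, beside 68.8% of all genes tested.

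Between the drugs, the largest differences among members that averaged 50 or more in the higher group were those of MMP7 (log2 change -4.33, SE 0.330, adjusted p = 9.47e-11) and ADAMTS14 (-4.30, SE 0.269, adjusted p = 3.33e-12). The place of MMP7 rests on the scale, since its difference was -2.55 on log2(value + 10). MMP24 (-2.87, adjusted p = 1.75e-18), ADAM21 (-2.84, adjusted p = 2.49e-08) and ADAMTS17 (-2.73, adjusted p = 6.3e-17) followed. In the opposite direction ADAMTS16 was 3.02-fold higher with mitoxantrone than with pyrimethamine (log2 change 1.59, adjusted p = 3.8e-17) and ADAM23 1.99-fold higher (0.99, adjusted p = 3.55e-14). TIMP3 was 3.02-fold lower (log2 change -1.59, adjusted p = 9.29e-17), TIMP2 2.66-fold lower and TIMP1 1.52-fold lower. Of the 8 members not called between the drugs, ADAM10, ADAM22, ADAMTS1 and ADAMTS2 had log2 differences of -0.02, 0.13, -0.10 and -0.10. Some alternatives called ADAM10 (quantile normalization, adjusted p = 0.0297), ADAM22 (edgeR, adjusted p = 0.0464) and ADAMTS1 (upper-quartile scaling, adjusted p = 0.036). The others not called were ADAM15, ADAMTS12, MMP13 and MMP14.

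The summed levels per kb describe each family as a whole. The TIMP sum was 6641 to 6751 in the control libraries, 9069 to 9622 with pyrimethamine and 4684 to 5186 with mitoxantrone. The MMP sum was 3794 to 4028, 3484 to 3741 and 2698 to 2845 in the same order, so both drug groups lay under the control, mitoxantrone further. The ADAM sum of 5154 to 5433 in the control overlapped the pyrimethamine range of 4914 to 5221 and lay below the mitoxantrone range of 6119 to 6521. The ADAMTS sum lay above the control range of 658 to 711 with both drugs, at 741 to 782 and 738 to 817, although the genes behind it differed: ADAMTS16 was at 263, 116 and 350 per kb in the 3 groups and ADAMTS15 at 210, 286 and 224.

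**Figure D4:**
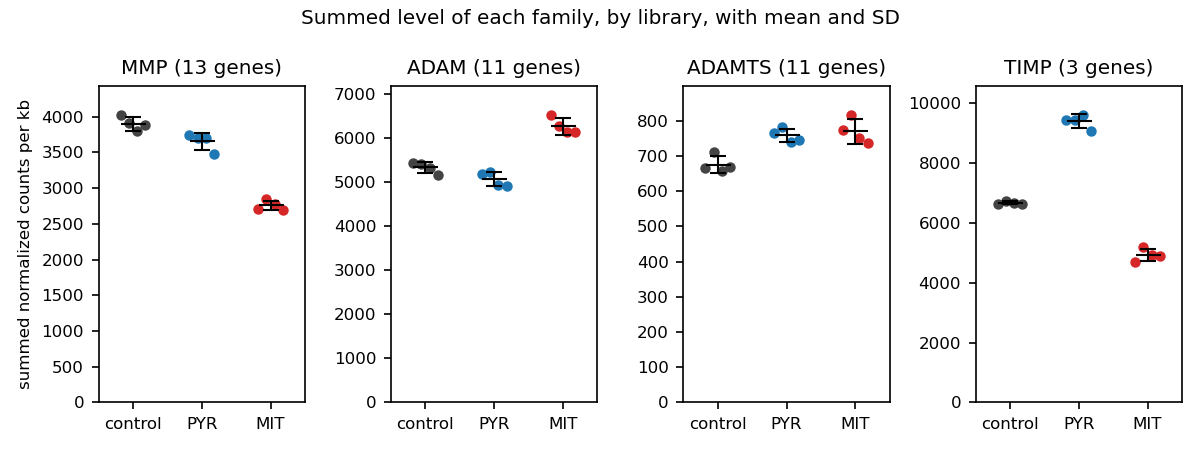
Summed normalized counts per kilobase of exon for the kept genes of each family, one point per library with the mean and SD of 4 libraries, for control, pyrimethamine (PYR) and mitoxantrone (MIT). The TIMP sum is 9069 to 9622 with pyrimethamine and 4684 to 5186 with mitoxantrone, on either side of the control at 6641 to 6751.

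MMP proforms are activated by plasmin, furin-type convertases, kallikreins and cathepsins, and a list of 30 such genes and surface regulators was read beside the family. Of 23 tested, 10 rose and 5 fell with pyrimethamine, beside 26.4% and 26.9% of all genes, and 3 rose and 12 fell with mitoxantrone, beside 33.5% and 35.8%. The kallikrein KLK5, an epithelial serine protease, averaged 337 ± 28.3 normalized counts in the control, 904 ± 27.8 with pyrimethamine and 18 ± 8.24 with mitoxantrone (SD, n = 4), log2 changes of 1.43 (adjusted p = 3.65e-06) and -4.25 (adjusted p = 7.91e-14). PLAT, a plasminogen activator, fell with both drugs, from 313 ± 29.5 to 216 ± 23.0 (adjusted p = 0.0014) and 55.9 ± 6.64 (adjusted p = 4.66e-13). The cathepsin CTSL fell with pyrimethamine (log2 change -0.44, adjusted p = 1.23e-08) and rose with mitoxantrone (0.24, adjusted p = 2.77e-05).

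A further 22 genes encode carriers and regulators of ADAM10 and ADAM17, scaffolds that bind ADAMs, Notch receptors and secretases. With pyrimethamine 6 rose and 8 fell, beside 26.4% and 26.9% of all genes, and with mitoxantrone 4 rose and 15 fell, beside 33.5% and 35.8%. NOTCH2, an ADAM10 substrate, averaged 9012 ± 762 in the control, 13776 ± 520 with pyrimethamine and 6671 ± 996 with mitoxantrone (SD, n = 4), changes of 0.62 (adjusted p = 4.24e-07) and -0.44 (adjusted p = 1.77e-05). TSPAN10, a tetraspanin that carries ADAM10 to the surface, fell with mitoxantrone (log2 change -1.73, adjusted p = 1.33e-12), and so did SH3PXD2B, an invadopodium scaffold that binds ADAMs (-0.93, adjusted p = 2.06e-13).

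Transcription factors known to act at MMP promoters moved in both directions. Of 20, 10 rose and 4 fell with pyrimethamine, beside 26.4% and 26.9% of all genes, and 5 rose and 9 fell with mitoxantrone, beside 33.5% and 35.8% of all genes. The AP-1 subunit FOSB averaged 909 ± 36.0 in the control, 1477 ± 42.6 with pyrimethamine and 184 ± 31.5 with mitoxantrone (SD, n = 4), log2 changes of 0.70 (adjusted p = 8e-07) and -2.31 (adjusted p = 2.61e-15). ETS1 changed by 0.42 (adjusted p = 2.01e-08) and -0.71 (adjusted p = 1.83e-12), and STAT3 by 0.61 (adjusted p = 5.57e-12) and -0.56 (adjusted p = 3.87e-12). SP1, which binds GC-rich promoters, went the other way, by -0.55 (adjusted p = 2.72e-10) and 0.71 (adjusted p = 1.14e-12), and so did CEBPB, by -0.73 (adjusted p = 1.12e-05) and 0.94 (adjusted p = 1.73e-07). Other factors did not move in opposite directions. ETV4 rose with both drugs (0.32, adjusted p = 0.00262, and 0.74, adjusted p = 7.07e-08). ETV5 rose with pyrimethamine (0.76, adjusted p = 4.97e-11) and NFKB1 fell (-0.63, adjusted p = 1.08e-09), and neither was called with mitoxantrone. FOS fell with mitoxantrone (-0.84, adjusted p = 0.000498) and was not called with pyrimethamine. Whether these changes bear on the proteases was not tested.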

How the data were processed

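Total RNA of KYSE70 cells was sequenced, 4 libraries a group. Tools listed in the submitters' processing notes are STAR 2.6.90c, featureCounts 1.5.1, cutadapt 1.12 and FastQC 0.11.5, with the builds hg38 and mm10. The authors deposited a normalized signal, here called normalized counts: reads per gene divided by a factor for each library. Multiplied back, 100% were whole within 0.01 read, and no column was left unmapped. limma 3.58.1 (R 4.3.3) was fitted to log2(value + 1) of 16950 genes in all 12 libraries with a term for group alone, eBayes with a trend, two-sided, with Benjamini-Hochberg adjustment over all genes and calls at 0.05. The scale understates changes of low genes. edgeR 4.0.16 and DESeq2 1.42.0 on the recovered reads were added after seeing the data. edgeR called 4506 genes higher and 4780 lower for pyrimethamine, 5805 and 5960 for mitoxantrone, and 6415 and 6528 between the drugs. Coordinates and exon lengths are from GENCODE release 29 (GRCh38), promoters from RefSeq. Values in every library were given for 23 genes chosen by rule: each kept TIMP, in each other family the 4 largest called changes per comparison among genes averaging 50 or more in the higher group, and the 2 most abundant per length. Members, lists and this rule were chosen with earlier results of these data known. Scripts were tested on simulated data. Tables were made with Python 3.11.15, pandas 2.3.3, numpy 2.4.6 and matplotlib 3.10.9.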

Additional observations from a re-analysis of the deposited data

Results flagged for a closer look

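In 8 of 114 groups of 4 libraries, 1 library of a family member stood so far from the other 3 that the gap passed Dixon's critical value for 4 samples at 95%, which chance gives in about 1 group in 20. Among the ADAMs, ADAM11 had 219 normalized counts in pyrimethamine replicate 4, where the others had 259 to 264, and ADAM19 had 42.7 in the same library against 20.47 to 23.54. ADAM21 was at 46.8 in control replicate 1 against 56.7 to 57.1, and at 63.5 in pyrimethamine replicate 3 against 110 to 116. ADAM23 was at 4299 in pyrimethamine replicate 2 against 3845 to 3862. ADAMTS20 was at 55.0 in control replicate 3 against 68.3 to 70.0. MMP13 was at 4.48 in mitoxantrone replicate 4 against 17.6 to 19.1, and MMP28 at 48.2 in pyrimethamine replicate 4 against 36.8 to 38.4.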

How the results depend on the processing

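Of 114 values (38 members in 3 comparisons), 90 kept their side of the threshold under each alternative run, and their direction where called. Another 24 crossed the threshold under at least 1, and 0 reversed once called. Direction was not compared where a value was called in neither run. Tried were a pseudocount of 0.5 or 10, an open filter or a mean of at least 100, same-total, upper-quartile and quantile scaling, a robust or untrended variance, the 8 libraries compared only, each library left out, and, added later, edgeR and DESeq2. With a mean of at least 100, where only 24 members were tested, 16 were lower with mitoxantrone against control (26 as reported) and 13 with mitoxantrone against pyrimethamine (23 as reported). Of all 12097 genes under that setting, 4230 were lower and 5053 higher with mitoxantrone against control. Between the drugs 4566 were lower and 5434 higher. Replicate numbers did not pair the libraries: same-numbered deviations correlated at -0.1303 to 0.1213 over 12 pairs, and 8 of 24 were best with their own number. A replicate block changed 1 call, that of MMP14 between the drugs, to an adjusted p of 0.046 (0.0584 without the block, limma), and left 26 members lower with mitoxantrone against control. With a pseudocount of 10 the mitoxantrone change of MMP19 was -0.78, of ADAM19 -1.55, of MMP1 -1.71, of MMP28 -1.38, of ADAMTS7 -1.30 and of ADAM20 -0.73. A library with no read of a gene allows up to 3 reads, for counting error only.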
